A study of Homo sapiens with 8 samples.

Results

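The nuclear genes for mitochondrial ribosomal proteins were followed in HEK293T cells, a human embryonic kidney line that carries the SV40 large T antigen. Members were the coding genes whose symbol is MRPL or MRPS followed by a number and at most 1 letter, and 76 of 19964 coding genes matched. Each gene was represented by the transcript with the most ribosome footprints on its coding sequence (CDS) over both control libraries. Of the 76 genes, 75 had a mean of at least 10 counts in each assay, namely 47 MRPL genes and 28 of 29 MRPS genes. The exception was MRPS24, whose CDS held 0 footprints in control replicate 1, 11 in control replicate 2, and 1 and 14 in the arsenite libraries. Reads shared between genes had been dropped by the authors.

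The mitochondrial ribosome translates the few messages of mitochondrial DNA, all of which encode subunits of the respiratory chain and ATP synthase. Its rRNAs come from mitochondrial DNA, but all of its proteins are encoded in the nucleus, translated by cytosolic ribosomes and imported. Some are relatives of bacterial ribosomal proteins and others are found only in mitochondria. MRPL proteins were named for the large (39S) subunit, which forms peptide bonds, and MRPS proteins for the small (28S) subunit, which decodes the message. The symbols are not exact, since MRPS30 and MRPS18A sit in the large subunit and MRPS36 is now placed in the alpha-ketoglutarate dehydrogenase complex.

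Cells received vehicle (control) or 40 µM sodium arsenite, an oxidative stressor, and were harvested 30 min later. Ribo-seq, which reads the mRNA fragments protected by ribosomes, and mRNA-seq of fragmented poly(A) RNA were made from the same lysates, with 2 replicates of each treatment and 8 libraries in all. All 8 libraries were made from HEK293T cells. The study's methods give the replicates as independent biological ones, and the p-values rest on 2 per group. On the transcripts used, ribo-seq libraries held 1023935 to 7270196 reads and mRNA-seq libraries 3993293 to 21724945, with replicate 1 the shallower in every group. Of markers of the line (VIM, KRT18, KRT8, NEFM, NEFL and PAX2) each was detected in every mRNA-seq library, with 6 to 9008 reads. The leukocyte genes CD3E and PTPRC held 0 and 2 to 15 reads, the hepatocyte gene ALB 0 to 4 and the fibroblast gene COL1A1 44 to 266. PAX2, with 6 to 71 reads, was below COL1A1 in every library, and KRT8 held 42 to 159. COL1A1 was thus not lower than all markers of the line. Translation efficiency (TE), the ribo-seq signal relative to mRNA-seq, rose under arsenite for ATF4, the transcription factor of the integrated stress response, by 2.28 ± 0.29 (log2 ± SE, adjusted p = 0.0099). For the immediate-early gene JUN it was RNA that rose, by 1.45 ± 0.05 log2 units (adjusted p = 2.79e-154).

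The members held a small share of each library. They took 0.738% of CDS footprints in control replicate 1 and 0.804% in control replicate 2, and the arsenite libraries, at 0.697% and 0.838%, enclosed these values. Of mRNA-seq reads they took 0.808% and 0.781% in control and 0.762% and 0.746% in arsenite, both of the latter below both controls. A member had a median of 157 CDS footprints in control replicate 1, 663 in control replicate 2, and 77 and 298 in the arsenite libraries, so counting error is largest in replicate 1. MRPL37, MRPL3 and MRPS34 had the most CDS footprints over both controls, with 2561, 2363 and 2298, and MRPL35, MRPL33 and MRPL45 the fewest, with 222, 271 and 305. These read numbers also depend on the length of the CDS, which was not used here, so levels are compared below only within a gene.

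Many of the members' messages had an ATG close to their annotated start, a feature that the selection did not use. RefSeq (GRCh38.p14) start sequences were matched for 67 of the 76 symbols, MRPS24 among them, which left 66 of the 75 members, and the first 50 transcribed bases were searched on the sense strand. An ATG lay within them in 66.7% of members, in 65% of MRPL and 69.2% of MRPS genes, against 48.4% of 62 cytosolic ribosomal protein genes and 32.4% of the 7948 genes tested for TE that had an entry. The letters AAGATGG, which contain an ATG, occurred in 22.7% of members, 6.45% of the cytosolic genes and 4.29% of all those genes. The terminal oligopyrimidine start of cytosolic ribosomal protein messages, read here as a C followed by at least 4 pyrimidines, was found in 7.58% of members, in 69.4% of the cytosolic genes and in 5.62% of all. Within 300 bases around the start, CTTCCGG, a motif of ETS-family transcription factors, was present on either strand in 42.4% of members, 33.9% of the cytosolic genes and 20.7% of all. None of these shares was tested. Which ATG is the annotated start codon was not matched here. The first 30 transcribed bases are shown for the 8 of 10 members with a called value described below that had an entry, which leaves out MRPL35 and MRPL2, both called higher under arsenite, and, for contrast, for the 2 cytosolic ribosomal protein genes with the most footprints among those with the pyrimidine start. Capitals mark AAGATGG or a lone ATG in the members and the opening pyrimidine run in the cytosolic genes. The stretch of RPL7A also ends in AAGATGG, which is left in lower case there.
MRPL42, chr12:93467514-93467543 (plus strand): attgaaacAAGATGGcgggttcgtggtgag
MRPL51, chr12:6493233-6493262 (minus strand): acagctgcctgggtaaggcccAAGATGGct
MRPL20, chr1:1407264-1407293 (minus strand): atttccgacccgggcAAGATGGcagcggcg
MRPS18B, chr6:30617840-30617869 (plus strand): aattcctgtcctgggcgtacgtcAAGATGG
MRPS18C, chr4:83456058-83456087 (plus strand): agtggaagaaacgcggaaccATGgccgctg
MRPS14, chr1:175023396-175023425 (minus strand): agtttgtagcggacaacATGgcggccttca
MRPS15, chr1:36464355-36464384 (minus strand): gcctcgattggtcgatcctgggccagcATG
MRPL37, chr1:54200167-54200196 (plus strand): ctcattcgttcccagcaggccctgcgcgcg
RPS6, chr9:19380207-19380236 (minus strand): CTCTTTTCCgtggcgcctcggaggcgttca
RPL7A, chr9:133348218-133348247 (plus strand): CTTTCTCTCTCCTCCCgccgcccaagatgg
Of the members called lower under arsenite, MRPL42 and MRPL51, called for occupancy, and MRPL20, called for RNA, carried AAGATGG. MRPS18C, called for RNA, had a lone ATG, and MRPL37, called for occupancy, had no ATG in the stretch shown. Among members with AAGATGG the median TE change under arsenite was 0.141 (n = 15) and among those without it 0.089 (n = 51), on the log2 scale, and the corresponding medians over all genes were -0.005 and -0.019.

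Before treatment, translation efficiencies varied less among the mitoribosomal messages than among messages as a whole, which was also true of the related gene lists described below. Baseline TE was taken as CDS footprints over CDS mRNA-seq reads in control, so that CDS length cancels and genes can be compared, and is given as log2 relative to the bulk of mRNAs. Its median was 0.150 over the 75 members and 0.005 over the 10611 genes tested. The members' values had an SD of 0.461 and ran from -1.18 to 1.18, while over all genes the SD was 0.945. The SD was 0.495 for mitochondrial aminoacyl-tRNA synthetases and 0.554 for nuclear-encoded respiratory chain subunits. It was 0.320 for mitoribosomal proteins under other symbols, 0.677 for cytosolic ribosomal proteins and 0.746 for mitochondrial translation and assembly factors. The median SE was 0.305 for a member and 0.331 for a gene. Their quartiles were -0.117 and 0.502, against -0.625 and 0.519 over all genes. By subunit the fitted medians were 0.108 for MRPL and 0.194 for MRPS genes, but within replicates the order was the opposite, with 0.241 against 0.195 in replicate 1 and 0.169 against 0.162 in replicate 2.

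For baseline TE, 3 of 75 members (4%) were called, where 22% of all genes were. By edgeR's quasi-likelihood test, 2 of 75 members were called higher, where 8.39% of all genes were, and 1 was called lower, where 13.6% of all genes were. All 3 are small-subunit proteins. MRPS18B, 1 of 3 human relatives of bacterial ribosomal protein S18, had a baseline TE of 1.17 and 1.18 in replicates 1 and 2 (1.18 ± 0.30, log2 ± SE, adjusted p = 0.014). MRPS14, a protein of the small subunit's head, had 1.11 and 0.81 (0.95 ± 0.30, adjusted p = 0.0383). Replicates were close for both genes. MRPS15, a relative of bacterial S15 that binds the small rRNA, was lower with -1.34 and -1.02 (-1.18 ± 0.30, adjusted p = 0.0151).

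The next values did not pass the test. MRPS6 had the third highest baseline TE, 0.91 ± 0.36 (adjusted p = 0.0828), but 1.61 in replicate 1 and 0.28 in replicate 2. MRPL37 and MRPL35, both low, had -0.90 ± 0.33 (adjusted p = 0.067) and -0.81 ± 0.32 (adjusted p = 0.0838). The other relatives of S18 lay near the middle, MRPS18A at 0.28 ± 0.32 and MRPS18C at -0.05 ± 0.31. Values of both replicates had a Pearson correlation of 0.22 across the members (n = 75) and 0.69 over all genes tested. Both are descriptions, since the points share 4 libraries. When mRNA-seq reads were counted over the whole transcript instead of the CDS, 21 members were called, the median rose to 0.459 and MRPS14 and MRPS15 no longer passed.

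**Figure D1:**
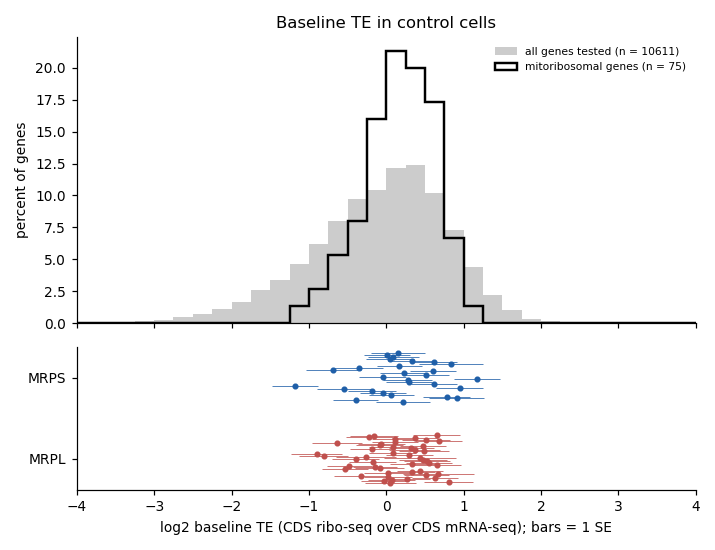
Baseline TE in control cells. The upper panel gives the percent of genes per bin of 0.25 log2 units for all genes tested (grey) and for the 75 members (line), and the lower panel gives each member with 1 SE, spread vertically for legibility. The members run from -1.18 to 1.18 with a median of 0.150, and their SD is 0.461, against 0.945 over all genes.

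RNA levels of the members differed little between control and arsenite at 30 min. Each of the 75 changes was under 0.5 log2 units in size, as were 97.6% of those over all genes. The median change was -0.067 (lowest -0.263, highest 0.217) over the members and -0.008 over 12600 genes. A negative estimate was found for 65 of 75 members and for 6582 of the 12600 genes. A lower level in both replicates was found for 40 members, or 53.3%, against 30.5% of all genes, and a higher one for 3, or 4%, against 30%. Among the lists described below, the share lower in both was 67.1% for cytosolic ribosomal proteins and 61.8% for nuclear-encoded respiratory chain subunits. It was 42.9% for mitoribosomal proteins under other symbols, 28.2% for mitochondrial translation and assembly factors and 15% for mitochondrial aminoacyl-tRNA synthetases. The members' median within replicate 1 was -0.089 and within replicate 2 -0.078. The subunits were close, with medians of -0.067 for MRPL and -0.046 for MRPS genes. All changes are relative to the bulk of mRNAs in these lysates, and the amount of RNA per cell was not measured here.

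For RNA, 3 of 75 members (4%) passed the test, where 5.75% of all genes did. MRPS18C, another relative of bacterial S18, had levels of 19.8 and 63.7 CPM (counts scaled to TMM library size) in control replicates 1 and 2, and 18.1 and 52.6 CPM in arsenite. The replicates differed far more than the treatments did, and in each the arsenite library was the lower, by -0.13 and -0.28 log2 units (-0.26 ± 0.08, adjusted p = 0.015). MRPL20, a relative of a bacterial large-subunit assembly protein, had 187 and 125 CPM in control and 161 and 111 CPM in arsenite and fell by 0.19 ± 0.06 on the log2 scale (adjusted p = 0.0189). MRPL2, which lines the peptidyl transferase region, had 63.6 and 45.1 CPM in control and 66.7 and 54.4 CPM in arsenite. It rose by 0.07 log2 units in replicate 1 and 0.27 in replicate 2 (0.22 ± 0.07, adjusted p = 0.0448). In all 3 the same direction was seen within each replicate. MRPL36 at -0.21 ± 0.07 (adjusted p = 0.0555) and MRPS12, a decoding-centre protein, at -0.20 ± 0.07 (adjusted p = 0.0556) were the next lowest, and MRPS9 at 0.12 ± 0.06 (adjusted p = 0.281) and MRPS30 at 0.11 ± 0.07 (adjusted p = 0.463) the next highest. With mRNA-seq reads of the CDS alone, none of the 3 calls passed. MRPL2 also missed the threshold with upper-quartile normalization (adjusted p = 0.0743) and with no filter on low counts (adjusted p = 0.0678).

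Ribosome occupancy, the CDS footprints of a gene relative to the other mRNAs, had a median change of 0.048 over the members and -0.003 over 10291 genes. The paper reports a strong general fall in translation under arsenite, which the scaling used here takes out. A higher occupancy or TE below is therefore relative to other mRNAs and can go with an absolute fall, and a value near 0 does not mean unchanged translation. The members divided evenly. In both replicates 22 were higher, or 29.3%, against 32% of all genes, and 24 were lower, or 32.0%, against 30.9%. The median was -0.127 in replicate 1 and 0.063 in replicate 2. For MRPL genes it was -0.027 and for MRPS genes 0.096, with no call among the latter.

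Occupancy passed the test for 4 of 75 members (5.33%), all MRPL, where 2.81% of all genes passed. MRPL42, a large-subunit protein found only in mitochondria, had 158 and 89.4 CPM of CDS footprints in control and 69.2 and 39.2 CPM in arsenite. Both arsenite libraries were thus below both controls, by 1.18 log2 units in either replicate (-1.19 ± 0.21, adjusted p = 0.0025), while its RNA was at 226 and 223 CPM in control and 228 and 218 CPM in arsenite. MRPL51, also specific to mitochondria, had 433 and 131 CPM in control and 183 and 91.4 CPM in arsenite. Its groups overlapped because the replicates differ, and within replicates it was lower by -1.24 and -0.51 log2 units (-0.86 ± 0.20, adjusted p = 0.0216). MRPL37, another mitochondria-specific protein and the member with the most footprints, had 181 and 292 CPM in control and 137 and 144 CPM in arsenite. Both treated libraries lay below both controls, with changes of -0.39 and -1.02 log2 units within replicates (-0.74 ± 0.19, adjusted p = 0.0418).

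MRPL35, a relative of bacterial L35, was the member called higher. Its CDS footprints were at 16.8 and 25.1 CPM in control and 52.2 and 49.0 CPM in arsenite, from 29 and 193 reads against 49 and 160. The groups did not overlap, and the change was 1.63 in replicate 1 and 0.97 in replicate 2 (1.20 ± 0.26, log2 ± SE, adjusted p = 0.0145). It is also the member with the fewest control footprints among the 75. The next highest were MRPL47, at the exit tunnel, with 0.69 ± 0.21 (adjusted p = 0.0749) and MRPL27, a relative of the bacterial peptidyl transferase protein L27, with 0.61 ± 0.23 (adjusted p = 0.158).

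**Figure D2:**
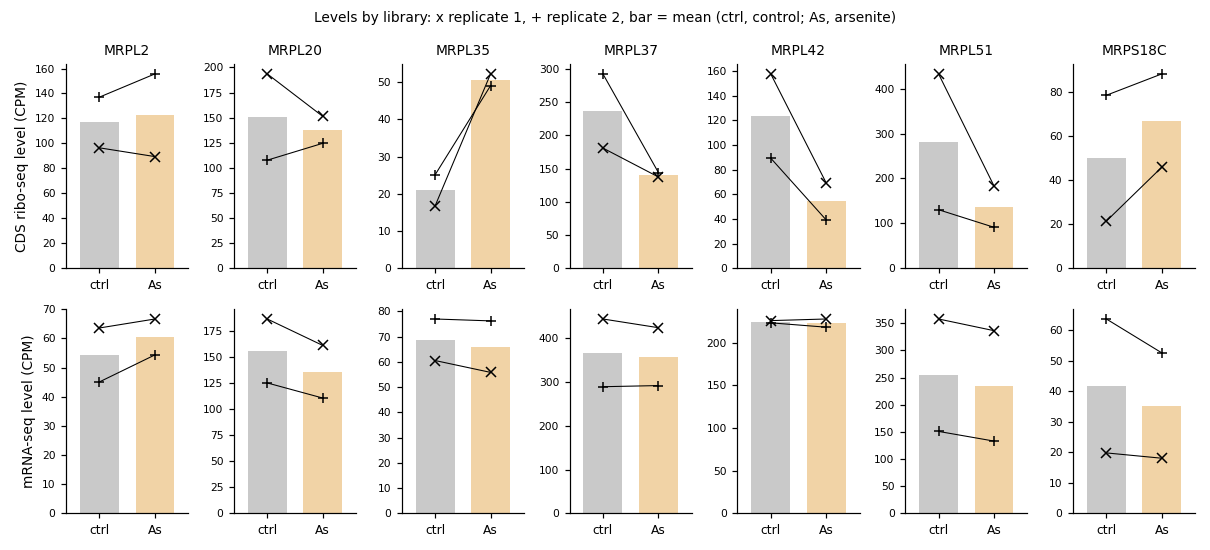
Levels by library of the 7 members called for RNA, occupancy or TE. CDS ribo-seq (upper row) and mRNA-seq (lower row) levels in CPM are shown for control (grey) and arsenite (orange), with bars for the mean of 2 replicates and lines joining libraries of the same replicate. Footprints of MRPL42 and MRPL37 are lower and those of MRPL35 higher in both arsenite libraries than in both controls, while their mRNA levels stay close.

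**Figure D3:**
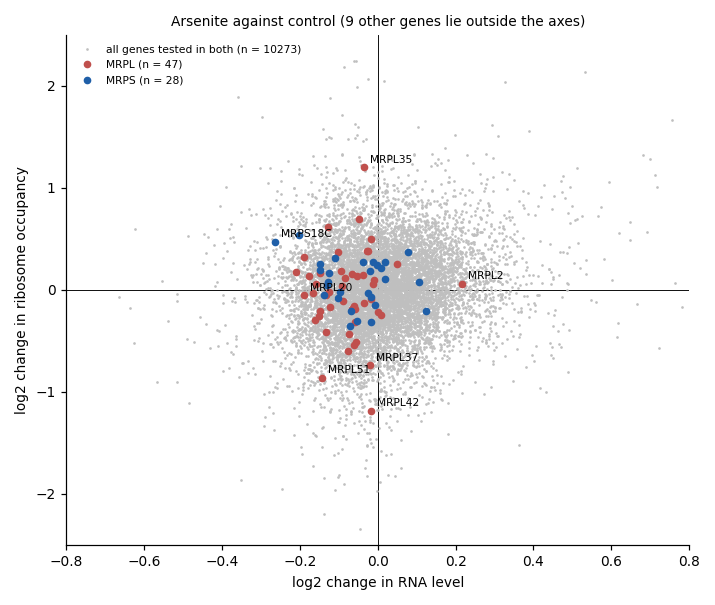
Arsenite change in RNA level (x axis) and ribosome occupancy (y axis), both log2, for 10273 genes (grey), MRPL genes (red) and MRPS genes (blue), with called members named. The members span -0.263 to 0.217 on the x axis and -1.19 to 1.20 on the y axis, and 9 other genes lie outside the axes.

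For TE, again relative to the bulk of mRNAs, the members had a median change slightly above that of all genes. The median log2 change was 0.122 over the 75 members, with quartiles at -0.113 and 0.270, against -0.013 over 10273 genes. Of the members 67, or 89.3%, changed by less than 0.5 log2 units, and of all genes 77.4%. The share was 92.1% for mitochondrial translation and assembly factors, 90% for mitochondrial aminoacyl-tRNA synthetases and 90.7% for nuclear-encoded respiratory chain subunits. TE was higher in both replicates for 30 members, or 40.0%, where 30.4% of all genes were, and lower in both for 17, or 22.7%, where 31.7% of all were. The median was 0.023 in replicate 1 and 0.099 in replicate 2, so the sign was shared and the size was not. Values of both replicates had a Pearson correlation of 0.44 over the members and 0.31 over all genes, a description only, since all points come from the same 8 libraries.

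For TE, 2 of 75 members (2.67%) passed the test and 2.15% of all genes did, so the members' share of calls was near the background. MRPL42 fell by 1.18 ± 0.16 on the log2 scale (adjusted p = 0.0131), with -1.19 in replicate 1 and -1.15 in replicate 2, to a level 2.26-fold lower. Its baseline TE of 0.32 ± 0.29 was not called. Relative to the bulk of mRNAs, TE of MRPL35 was 2.24-fold higher (1.16 ± 0.20, log2 ± SE, adjusted p = 0.0298), with log2 changes of 1.74 and 0.98 in replicates 1 and 2. Its absolute translation was not measured here. Both calls were of large-subunit proteins, in opposite directions.

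Several members lay just short of the threshold. MRPL47 had 0.73 ± 0.16 (adjusted p = 0.0519) and MRPL27 0.89 ± 0.22 (adjusted p = 0.0644), higher in both replicates. MRPL37 had -0.74 ± 0.20 (adjusted p = 0.0777) and MRPL51 -0.72 ± 0.22 (adjusted p = 0.101), lower in both. MRPS12 led the small subunit at 0.64 ± 0.18 (adjusted p = 0.0856). Its replicates gave 1.12 and 0.61, the first from 19 and 21 CDS footprints.

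**Figure D4:**
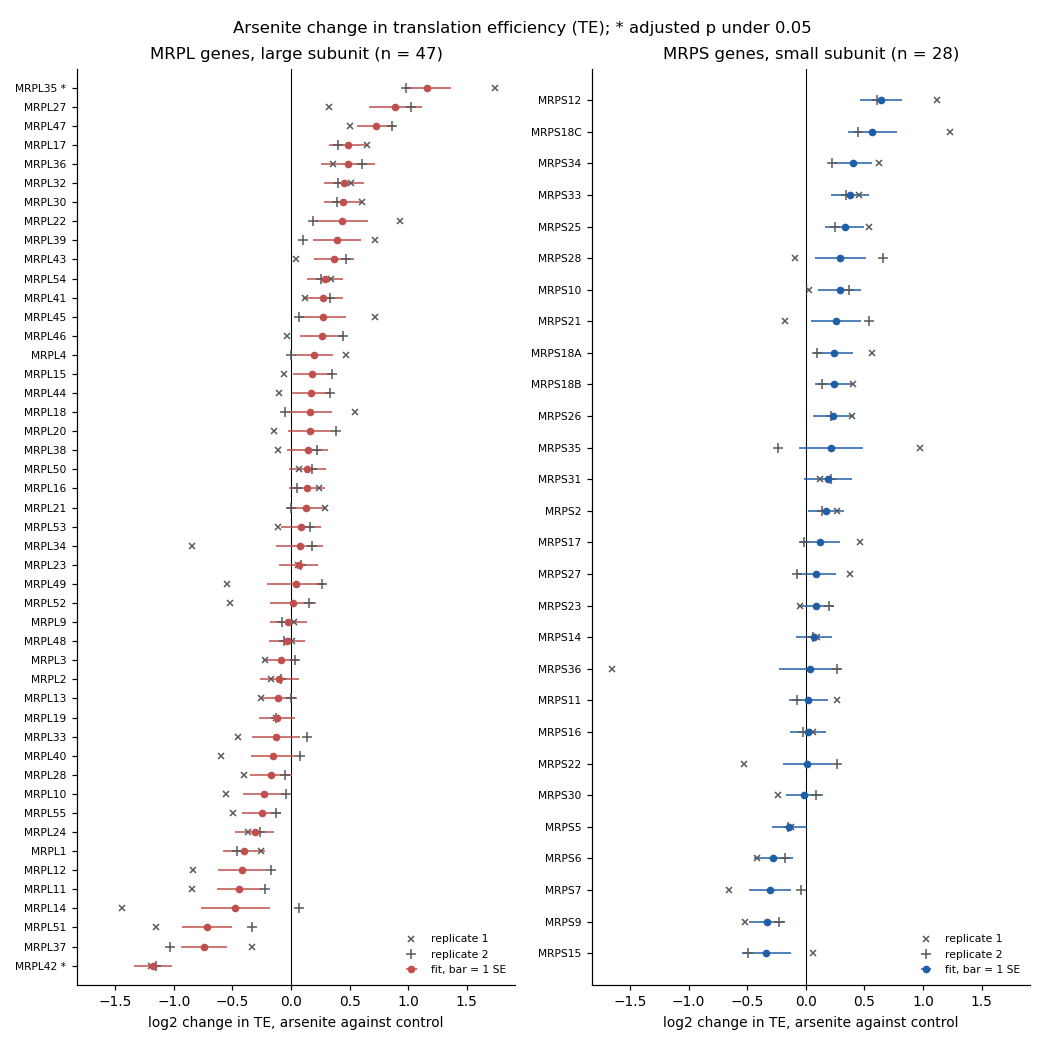
Log2 change in TE under arsenite for each MRPL gene (left, n = 47) and MRPS gene (right, n = 28). Points give the fitted change with 1 SE, crosses and plus signs the change within replicates 1 and 2, and asterisks mark MRPL35 and MRPL42, the 2 members called. Most members lie within 0.5 of 0.

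By subunit, the median TE change was 0.089 for the 47 MRPL genes and 0.147 for the 28 MRPS genes. Within replicates 1 and 2 it was -0.099 and 0.088 for MRPL, so its sign changed, and 0.110 and 0.138 for MRPS genes. MRPL genes spanned -1.18 to 1.16, with an SD of 0.416, and MRPS genes -0.338 to 0.641, with an SD of 0.249. All calls for occupancy and TE were MRPL and none were MRPS, a difference that was not tested. Moving MRPS30 and MRPS18A to the large subunit and leaving out MRPS36 gave medians of 0.089 and 0.172. The 3 genes themselves did not pass in TE, with -0.01 ± 0.16 for MRPS30, 0.24 ± 0.17 for MRPS18A and 0.04 ± 0.26 for MRPS36, whose replicate 1 rests on 37 and 7 CDS footprints.

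All calls of a change rest on comparing libraries within a replicate. Without the replicate as a block in the model, no gene at all passed for RNA, occupancy or TE by edgeR, and 0, 2 and 2 members had an unadjusted p under 0.05. With 1 replicate block shared by both assays, 0 members and 0 genes were called for TE. DESeq2 with the block called 0 members for RNA, 1 for occupancy (MRPL42) and 2 for TE (MRPL35 and MRPL42).

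Footprints outside the CDS were few on these messages. No leader footprint was found in any library for 33 of the 75 members, and the median leader share of leader plus CDS footprints in control was 0 for the members and 0.213% for all genes. Of members with at least 10 leader footprints over both controls, MRPS21 had the largest share, 86 footprints or 5.83%. It was followed by MRPL34 (5.33%), MRPL55 (3.93%), MRPS12 (3.58%) and MRPL18 (2.55%). Under arsenite the leader share of MRPS21 was 10.3% (95% Wilson interval 6.33 to 16.3%) in replicate 1, against 3.81% in control (2.19 to 6.54%), and 7.23% (5.5 to 9.45%) in replicate 2, against 6.38% (5.11 to 7.94%). The intervals overlapped in both replicates. Intervals cover counting error only, since reads are not independent molecules. Summed over all 75 members, the leader share of replicate 1 went from 0.243% to 0.407% with arsenite and that of replicate 2 from 0.657% to 1.25%. Over all genes it went from 0.392% to 0.491% and from 0.797% to 1.53%.

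In their 3′ UTRs, the members held 41 footprints in control replicate 1 and 43 in its arsenite counterpart, and 88 and 193 in replicate 2. As a share of CDS plus 3′ UTR footprints this was a step from 0.293% to 0.603% in replicate 1 and from 0.152% to 0.768% in replicate 2. MRPL33 alone held 31 and 29 of the control footprints, and without it the steps were from 0.0722% to 0.508% and from 0.102% to 0.726%, a setting chosen after seeing the data. Over all genes the share also was higher in arsenite within each replicate, at 0.102% against 0.202% in replicate 1 and 0.206% against 0.766% in replicate 2. MRPL42, 1 of the 3 members with CDS occupancy called lower, had no 3′ UTR footprint in either control library, and 4 and 23 with arsenite.

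**Figure D5:**
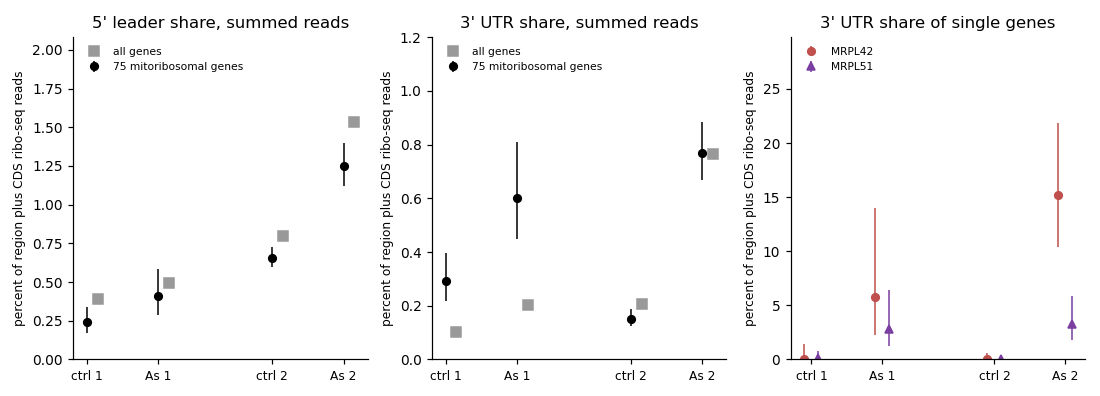
Share of ribo-seq reads in the 5′ leader (left) and 3′ UTR (middle), each relative to that region plus the CDS, summed over 75 members (black) and all genes (grey), and 3′ UTR share of MRPL42 and MRPL51 (right). Bars are 95% Wilson intervals, ctrl is control, As is arsenite and the digits are replicates. All shares shown for the 75 members and for both single genes are higher in arsenite within each replicate.

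Lists of related genes place these values. The 7 mitoribosomal proteins listed under other symbols had a median TE change of 0.117 with no call, from -0.215 ± 0.154 for ICT1, a peptide release factor of the large subunit, to 0.55 ± 0.18 for CHCHD1 (adjusted p = 0.12), whose RNA fell by 0.23 ± 0.07 on the log2 scale (adjusted p = 0.0232). For 38 tested mitochondrial translation and ribosome assembly factors the median TE change was 0.122. NGRN, a factor tied to assembly of the large subunit, was the gene called, with 1.14 ± 0.19 (adjusted p = 0.0275). For 20 mitochondrial aminoacyl-tRNA synthetases the median was 0.128, with no call.

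Cytosolic ribosomal proteins had lower fitted medians than the members for the measures that follow, a difference that was not tested. In replicate 1 the order for RNA was the opposite, with -0.050 against -0.089. Their median TE change was -0.150 over 77 tested genes, of which 2 rose and 3 fell (1.03% and 1.12% of all genes), among the latter RPL12 by 1.29 ± 0.20 on the log2 scale (adjusted p = 0.0235). Their median RNA change was -0.113, with 23 of 79 genes lower where 2% of all genes were, and their median baseline TE was -0.580, with 16 of 78 genes lower where 13.6% of all genes were. Nuclear-encoded subunits of the respiratory chain, the partners of the products that mitoribosomes make, had a median RNA change of -0.104, with 21 of 76 genes lower, a median TE change of 0.032 and a median baseline TE of 0.312, with 9 of 75 genes higher and 1 lower, where 8.39% and 13.6% of all genes were.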

How the data were processed

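The authors removed adapters with cutadapt and aligned reads with Bowtie 1.0.0 (named in the submitters' processing notes) to RefSeq transcripts, after setting aside rRNA and spike-in reads. Reads that mapped to more than 1 gene were discarded. The deposited values are raw counts for 47087 transcripts, of which 35851 coding ones carry separate counts for leader, CDS and 3′ UTR.

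The study took the transcript with the highest footprint density in control. Lengths were not used here, so the one with the most CDS footprints was taken, which matters for the 7766 genes with 2 or more coding transcripts. RNA level used counts over the transcript, occupancy CDS footprints, TE the interaction of assay and treatment, and baseline TE control CDS counts of both assays. Genes averaging 10 or more counts in each assay used were tested with edgeR 4.0.16 (R 4.3.3), by the quasi-likelihood test with TMM normalization and Benjamini-Hochberg adjustment over all genes tested, at a threshold of 0.05. SE is the log2 change over the root of the F statistic. A prior count of 0.5 was added for log2 values of single replicates. The tests were checked on simulated counts, where that of baseline TE recovered far fewer changed genes than those of the arsenite changes. Only 200 of 10611 genes were changed in that simulation, while the data gave 2336 calls for baseline TE. The adjustment therefore differs, and the recovery does not carry over to the data.

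The replicate entered as a block, within each assay for TE, because the study sequenced and normalised its replicates separately. Deviations from the group mean correlated between control and arsenite libraries of 1 replicate, at 0.726 for RNA (12600 genes) and 0.703 for occupancy (10291 genes).

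Members and lists were chosen with earlier results of these data known. Genes named are members past the threshold for a change, the 3 highest and 3 lowest for each measure, those with the most and fewest footprints or the largest leader shares, the 1 removed by the filter, the 3 with disputed placement, and from each list some of its 2 highest and 2 lowest TE changes. The 3′ UTR footprints of MRPL33, MRPL42 and MRPL51 were named after their values were seen. As alternatives, each fit was repeated with other filters, transcripts, read regions, blocks and subunit placements, with upper-quartile scaling, with DESeq2 1.42.0 and without each replicate. Tables and figures used pandas 2.3.3, scipy 1.17.1 and matplotlib 3.10.9.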

Additional observations from a re-analysis of the deposited data

Results flagged for a closer look

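Leader and 3′ UTR footprints entered none of the main tests. The 150 shares they give for the 75 members were therefore looked through for a 95% Wilson interval above that of both controls in both arsenite libraries. The 3′ UTR shares of 2 of 75 members (2.67%) met this, as did those of 16 of 10273 genes tested for TE (0.156%), and the leader shares of 0 members and 3 genes. Wilson intervals narrow as footprints increase, and the genes tested include ones with a mean of only 10 counts. Members and all genes were not matched for footprint number, so these percentages are not directly comparable. Summed over all genes, the 3′ UTR share also was higher in arsenite in each replicate. MRPL42 held 5.80% of its CDS plus 3′ UTR footprints in the 3′ UTR in arsenite replicate 1 (2.28 to 14.0%, 4 footprints) and 15.2% in replicate 2 (10.4 to 21.8%, 23 footprints), while both controls held 0 of 273 and 0 of 687, with upper bounds of 1.39% and 0.556%. MRPL51 held 2.83% (1.21 to 6.44%, 5 footprints) and 3.25% (1.77 to 5.87%, 10 footprints), against 1 footprint, or 0.133% (0.024 to 0.751%), in control replicate 1 and 0 of 1003 in control replicate 2. Both genes are among the 3 members with CDS occupancy called lower, so the denominators fell too. Without MRPL33, MRPL42 and MRPL51, a choice made after seeing the data, the summed 3′ UTR share of the other 72 members was 0.0702% and 0.105% in control and 0.395% and 0.606% in arsenite. Where in the 3′ UTR these footprints lie was not analysed here, and their cause was not tested.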

How the results depend on the processing

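Depth limits replicate 1 most, where the members' CDS footprints ran from 18 to 749 in control and from 5 to 375 in arsenite. Of the 12 calls of members, each kept its direction under all alternatives run. Without the replicate block the calls fell to 0 members and 0 genes for RNA, occupancy and TE, and to 0 members and 377 genes for baseline TE. With 1 replicate block shared by both assays, TE gave 0 members and 0 genes.

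DESeq2 called 0 members and 86 genes for RNA, 1 member and 54 genes for occupancy and 114 genes for TE, and gave member medians of -0.059 for RNA and 0.212 for baseline TE. Upper-quartile normalization called 477 genes for occupancy and 142 for TE, with member medians of -0.076 for RNA and 0.087 for baseline TE. With no filter on low counts, 540 genes were called for occupancy, 5 members and 458 genes for TE, and 8 members for baseline TE at a median of 0.211. With a mean of at least 50 counts, 578 genes were called for occupancy, 136 for TE and 1544 for baseline TE, whose member median was 0.046. Choosing transcripts by mRNA-seq reads gave a median RNA change of -0.055. Counting mRNA-seq over the CDS called 0 members and 240 genes for RNA and 80 genes for TE. Counting it over the transcript gave, for baseline TE, 21 members, 3629 genes and a median of 0.459. With the structural placement the MRPS medians were -0.052 for RNA and 0.172 for TE.

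Leaving out a replicate leaves no test. The member medians then ran from -0.089 to -0.078 for RNA, -0.127 to 0.063 for occupancy, 0.023 to 0.099 for TE and 0.163 to 0.241 for baseline TE. The causes were not tested.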
